A study of Mus musculus with 8 samples.

Results

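The photoreceptor ribbon synapse is described here by 10 genes of the Cav1.4 calcium channel complex, the synaptic ribbon and the active zone. They were found by symbol in the count table, and all 10 of its 26824 genes that carry these symbols were measured: Cacna1f, Cacna2d4, Cacnb2, Cabp4, Ctbp2, Bsn, Pclo, Rims2, Slc17a7 and Elfn1. All 10 passed the filter on low counts, which kept 20167 genes. RNA sequencing was done on retinas of mice aged 1 month, with 2 retinas of a mouse pooled in each library. The groups were 3 libraries labelled WT (WT 1 to WT 3) and 5 labelled Kv8.2 KO (KO 2 to KO 6), Kv8.2 being the potassium channel subunit encoded by Kcnv2. The labels give neither the strain, the allele nor the sex of the mice, and no treatment was applied. The authors' own comparison kept only 3 of the KO samples, and the sources used here do not say which, so all 5 entered here.

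Photoreceptors release glutamate continuously in darkness and lower that release in light. Calcium that drives release enters through Cav1.4 channels, which lie under the ribbon, a plate that tethers synaptic vesicles beside the release site. Mutations of the genes for Cav1.4 and for CaBP4 are known causes of inherited disorders of photoreceptor transmission. Potassium channels that contain Kv8.2 carry current in the photoreceptor inner segment and shape the voltage that reaches this synapse.

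Some features of the libraries bear on every value below. Kcnv2 was present in each library, at 519 to 551 CPM in WT (a gene's counts relative to the library total, scaled by edgeR's trimmed mean of M values, TMM). KO 3 to KO 6 held 398 to 447 CPM, less than any WT library, and KO 2 held 585 CPM, more than any. Its log2 fold change was -0.24 (edgeR adjusted p-value 0.275). It was called lower in 3 of 32 alternatives, among them -0.35 without KO 2 and -0.38 without KO 2 and KO 3 (edgeR adjusted p-value 1.16e-04). Over the 32 alternatives the log2 fold change of Kcnv2 was -0.38 to -0.04. The transcript was thus not absent under the KO label, and WT and KO below mean only what the labels say. Depth was 17759146 to 25188870 counts. The share of mitochondrial genes was 7.09% to 7.92% in WT libraries, 6.52% in KO 2, 5.23% in KO 3 and 3.03% to 3.70% in KO 4, KO 5 and KO 6, and these last 3 libraries stood apart from all others. They include no WT library, so within them a batch and the label cannot be told apart; results are therefore also given for KO 2 and KO 3 against WT. Lens genes took 5.02% of the counts of KO 3. WT 3 alone held Y-linked transcripts (2132 counts of Ddx3y, against 1 to 3 elsewhere). The label of retina was checked on markers of its cells: the 12 rod markers summed to 42538 to 64551 CPM, the 12 cone markers to 1110 to 1609 CPM and the 13 bipolar markers to 1582 to 1885 CPM. In RNA from whole retina, fewer cells of a type and less RNA per cell cannot be told apart.

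Promoter sequence was shown for 3 of the genes whose KO and WT values did not overlap, because 2 of them share a motif and the third has more than 1 start. Of the 10 genes, 7 had RefSeq promoters (assembly GRCm38.p6), 9 starts in all. The 250 bases before each start were searched on both strands for TAATCC, the core bound by the photoreceptor factor CRX, for TGCTGA, part of the site of the rod factor NRL, and for AGGTCA, a motif of nuclear receptors. Capitals mark matches. Cacna1f lies on chromosome X, and its window at chrX:7606853-7607102 (plus strand) read:
Cacna1f: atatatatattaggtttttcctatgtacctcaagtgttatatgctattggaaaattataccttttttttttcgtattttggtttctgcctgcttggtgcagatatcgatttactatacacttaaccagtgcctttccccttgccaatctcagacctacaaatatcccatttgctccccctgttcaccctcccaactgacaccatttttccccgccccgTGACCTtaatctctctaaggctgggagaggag
The Elfn1 window at chr5:139907616-139907865 (plus strand) read:
Elfn1: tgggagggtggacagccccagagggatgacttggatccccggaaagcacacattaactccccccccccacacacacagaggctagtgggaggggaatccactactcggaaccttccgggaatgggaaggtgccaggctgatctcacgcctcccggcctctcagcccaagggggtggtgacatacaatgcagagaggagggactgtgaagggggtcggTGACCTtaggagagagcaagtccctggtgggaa
Both hold AGGTCA on the opposite strand, with its most distant base 32 bases before the start in Cacna1f and 33 in Elfn1. This motif occurred in 2 of the 9 member windows and in 14.0% of all 32851 RefSeq windows. The window of Bsn, whose values did not overlap either, held none of the 3 motifs. Ctbp2 has starts of its own for CtBP2, a transcriptional corepressor, and for RIBEYE, the main protein of the ribbon, which shares its later exons. In the GENCODE M21 annotation, the transcript that begins at position 133015248 on the minus strand of chromosome 7 encodes 988 residues, as RIBEYE does, while the longest product of the upstream starts has 445. The window of 250 bases that ends there, chr7:133015248-133015497, and that of an upstream start, chr7:133081861-133082110 (both minus strand), read:
Ctbp2, RIBEYE start: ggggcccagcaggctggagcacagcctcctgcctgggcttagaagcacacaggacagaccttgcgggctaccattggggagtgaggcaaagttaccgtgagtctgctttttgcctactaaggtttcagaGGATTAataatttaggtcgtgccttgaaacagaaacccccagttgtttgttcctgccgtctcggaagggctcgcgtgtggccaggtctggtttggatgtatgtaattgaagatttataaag
Ctbp2, upstream start: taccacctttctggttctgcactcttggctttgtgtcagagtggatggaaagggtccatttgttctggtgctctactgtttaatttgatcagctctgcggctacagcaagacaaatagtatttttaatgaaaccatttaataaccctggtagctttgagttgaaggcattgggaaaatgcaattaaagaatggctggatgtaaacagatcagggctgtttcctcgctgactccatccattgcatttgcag
The RIBEYE window holds TAATCC on the opposite strand, with its most distant base 121 bases before the start, and the upstream window holds none of the 3 motifs. TAATCC occurred in 1 of the 9 member windows and in 6.3% of all windows, and TGCTGA in 0 of 9 and in 16.1%. A match describes these letters only. The deposited counts are per gene, so transcripts of RIBEYE and CtBP2 cannot be separated in what follows.

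The comparison of KO with WT libraries asks how the retinal transcripts of the release machinery differ in mice labelled as lacking Kv8.2. The pore subunit of Cav1.4 was lower in every KO library than in every WT library. The ribbon gene Ctbp2, the active zone gene Bsn and the adhesion gene Elfn1 were higher in every KO library. Of all tested genes, 10.8% were likewise higher and 10.1% lower in every KO library. In the quasi-likelihood test of edgeR, adjusted over all tested genes by the method of Benjamini and Hochberg, Elfn1 and Ctbp2 rose and no member fell. This was 2 of 10 higher, where 4.74% of all tested genes were called higher, and 0 of 10 lower, where 2.84% were called lower. At an unadjusted p-value under 0.05, 4 members were higher and 1 lower, where 15.1% and 12.2% of all genes were. GC correction, and the fit of KO 2 and KO 3 against WT, each left 0 members called higher and 1 (Cacna1f) lower, with 2 higher and 2 lower at an unadjusted p-value under 0.05. Of all genes, 4.33% were called higher and 2.82% lower with GC correction (13.9% and 11.1% unadjusted), and 0.624% and 0.267% for KO 2 and KO 3 (10.1% and 8.82% unadjusted). Without WT 1, WT 2 or WT 3 edgeR called 0 members, with 3 higher and 0 or 1 lower at an unadjusted p-value under 0.05 (10.9% to 11.5% and 7.70% to 9.11% of all genes), and called 88, 87 and 137 of all genes higher where the full set of libraries gave 956. With library size alone as the scaling, edgeR called 566 genes higher and 787 lower, where TMM gave 956 and 573, and 1 member higher and 0 lower. DESeq2 called 3 higher and 1 lower, where it called 9.72% and 5.79% of all genes, and limma voom with library quality weights called 5 and 2, where it called 20.3% and 20.6%. Groups did not overlap for 3 members that were higher and 1 that was lower, against 10.8% and 10.1% of all tested genes. The median log2 fold change of the 10 genes was 0.11, beside 0.00 for all tested genes.

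**Figure D1:**
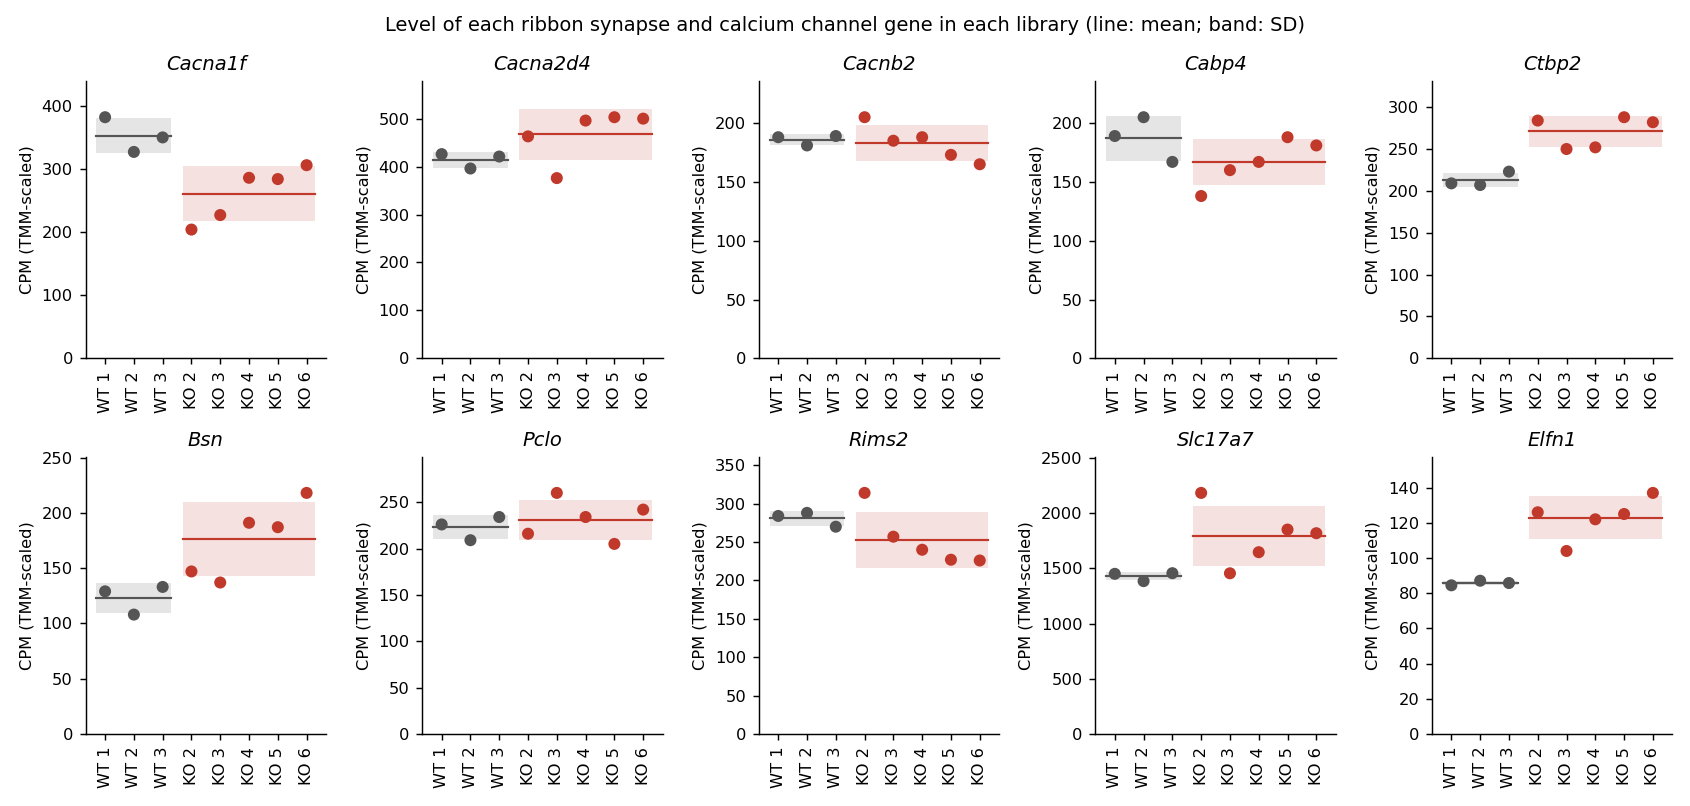
TMM-scaled CPM (vertical axes, from 0) of each of the 10 genes in the 3 WT (grey) and 5 KO (red) libraries, with the group mean as a line and the SD as a band. Cacna1f lies lower and Ctbp2, Bsn and Elfn1 lie higher in all 5 KO libraries than in any WT library, while the groups overlap for the other 6 genes. Of all tested genes, 10.8% were higher and 10.1% lower without overlap.

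Cacna1f (ENSMUSG00000031142, chrX:7607083-7635196, plus strand, GRCm38 with GENCODE M21) encodes the pore-forming subunit of Cav1.4. WT 1 to WT 3 held 382, 327 and 350 CPM of it, against 204, 227, 286, 284 and 306 CPM in KO 2 to KO 6. KO 2 and KO 3 were the lowest of the 8 libraries, and the highest KO library was below the lowest WT library. From WT to KO the mean went from 353 ± 27.4 CPM (SD, n = 3) to 261 ± 43.7 CPM (SD, n = 5), a log2 fold change of -0.43 (SE 0.14, edgeR adjusted p-value 0.0814), which did not pass the test. It passed in edgeR once each library was corrected for the GC content of its transcripts, with a log2 fold change of -0.57 (SE 0.11, adjusted p-value 0.0176). It also passed for KO 2 and KO 3 against WT, with -0.71 (SE 0.12, edgeR adjusted p-value 0.0465), where 0.267% of all tested genes were called lower. Cacna1f was then the 1 member called in either direction. That fit rests on KO 2, where Kcnv2 was at 585 CPM, above every WT library, and on KO 3, where lens genes took 5.02% of counts. For KO 4, KO 5 and KO 6 against the same WT libraries the log2 fold change of Cacna1f was -0.26 (SE 0.07, edgeR adjusted p-value 0.00587), where 20.5% of genes were called lower. Cacna1f is X-linked, and without WT 3, the library with Y-linked transcripts, its log2 fold change was -0.44 (edgeR adjusted p-value 0.193).

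The other subunits of the channel, and CaBP4, had values that overlapped between the groups. Cacna2d4, the alpha2delta subunit that photoreceptor Cav1.4 carries, was at 426, 396 and 421 CPM in WT and at 463, 376, 496, 503 and 500 CPM in KO 2 to KO 6. KO 3 was below every WT library and the other 4 KO libraries were above them. Its log2 fold change was 0.17, with a 95% interval of -0.09 to 0.44 (edgeR adjusted p-value 0.365). Cacnb2, the beta subunit, was at 181 to 189 CPM in WT and at 165 to 205 CPM in KO, with a median of 185, and the log2 fold change of -0.02 had an interval of -0.23 to 0.19 (edgeR adjusted p-value 0.922). Cabp4, a calmodulin-like protein that lets Cav1.4 open at more negative voltage, was at 189, 205 and 167 CPM in WT and at 138, 160, 167, 188 and 181 CPM in KO. Its lowest values were those of KO 2 and KO 3, as for Cacna1f, and the groups overlapped, with a log2 fold change of -0.16 (SE 0.12, edgeR adjusted p-value 0.394) over all libraries and -0.33 (SE 0.12, edgeR adjusted p-value 0.214) for KO 2 and KO 3 against WT.

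Counts of Cacna1f were divided by those of each other member within each library, since such ratios do not depend on how libraries are scaled. These ratios were chosen after the levels had been seen, so they are given as a description without a test. The ratio of Cacna1f to Cacna2d4 was 0.896, 0.827 and 0.831 in WT and 0.44, 0.604, 0.576, 0.564 and 0.612 in KO 2 to KO 6, so all 5 KO libraries were below all 3 WT libraries. These genes are alike in exonic length, 9.09 and 9.48 kb, and in GC content of transcripts, 53.0% and 53.2%. The log2 difference was -0.62 (SE 0.09), with -0.72 for KO 2 and KO 3 and -0.54 for KO 4, KO 5 and KO 6 against WT. Leaving out any library, or any pair of KO libraries, gave log2 differences of -0.70 to -0.51. The ratios of Cacna1f to Pclo and Slc17a7 were also lower in every KO library, with log2 differences of -0.50 and -0.76. Those to Ctbp2, Bsn and Elfn1, with log2 differences of -0.80, -0.95 and -0.96, had to separate the groups, since the levels of both genes of each pair did so in opposite directions. Against Cacnb2 and Cabp4 the ranges overlapped, from 0.993 to 1.86 in KO and 1.81 to 2.03 in WT for Cacnb2, and from 1.42 to 1.71 and 1.6 to 2.1 for Cabp4. Against Rims2 they overlapped as well (log2 difference -0.29). A ratio shows unequal change and not which of its members changed.

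**Figure D2:**
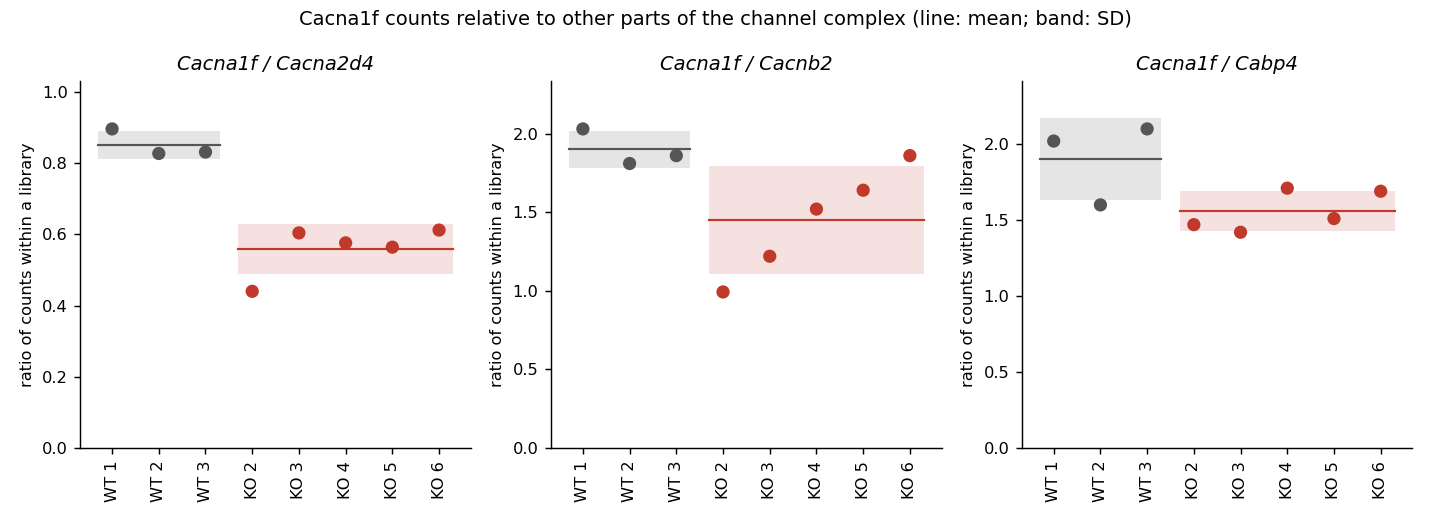
Ratio of Cacna1f counts to those of Cacna2d4, Cacnb2 and Cabp4 within each library (vertical axes, from 0), with group means as lines and SDs as bands. The ratio to Cacna2d4 is 0.827 or above in the WT libraries and 0.612 or below in the KO libraries, while the ratios to Cacnb2 and Cabp4 overlap between groups.

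Among the ribbon and active zone genes, Ctbp2 rose (ENSMUSG00000030970, chr7:132987563-133124354, minus strand; 314 bases of its exons lie in exons of Fgfr2 on the same strand). It was at 209, 207 and 223 CPM in WT and at 284, 250, 252, 288 and 282 CPM in KO 2 to KO 6, with no overlap. The WT mean was 213 ± 8.39 CPM (SD, n = 3), the KO mean 271 ± 18.4 CPM (SD, n = 5), a log2 fold change of 0.35 (SE 0.09). The edgeR adjusted p-value was 0.0499, just under the threshold of 0.05. It was 0.0502 with DESeq2's size factors, 0.177 for KO 2 and KO 3 against WT at a log2 fold change of 0.33, and 0.322 after GC correction at 0.16. Without any 1 of WT 1, WT 2, WT 3, KO 4, KO 5 and KO 6 it was 0.0895 to 0.194, at log2 fold changes of 0.33 to 0.38. The call held without KO 2 (0.33, edgeR adjusted p-value 0.0389) and without KO 3 (0.39, edgeR adjusted p-value 0.00925). For KO 4, KO 5 and KO 6 against WT the log2 fold change was 0.37 (edgeR adjusted p-value 4.45e-04), where 22.3% of all genes were called higher.

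Bsn (ENSMUSG00000032589, chr9:108096022-108190384, minus strand) encodes Bassoon, the large scaffold that anchors the ribbon at the release site. It was at 129, 108 and 133 CPM in WT and at 147, 137, 191, 187 and 218 CPM in KO. All KO libraries were higher, KO 2 and KO 3 only slightly so, and KO 4 to KO 6 well above. The log2 fold change was 0.51 (SE 0.16, edgeR adjusted p-value 0.0694), and it was 0.21 (SE 0.11, edgeR adjusted p-value 0.356) for KO 2 and KO 3 against WT and 0.70 (SE 0.08, edgeR adjusted p-value 4.12e-05) for KO 4, KO 5 and KO 6. Pclo, which encodes Piccolo and its short ribbon-synapse form, was at 209 to 234 CPM in WT and at 205 to 260 CPM in KO. Its log2 fold change of 0.05 had an interval of -0.18 to 0.28 (edgeR adjusted p-value 0.780). Rims2, whose protein RIM2 acts on calcium entry at the active zone, was at 284, 288 and 270 CPM in WT and at 314, 257, 240, 227 and 226 CPM in KO. KO 2 was the highest library of all and the other 4 KO libraries were below every WT library. The log2 fold change was -0.15 over all libraries (SE 0.12, edgeR adjusted p-value 0.449), 0.03 for KO 2 and KO 3, and -0.27 for KO 4, KO 5 and KO 6 (SE 0.05, edgeR adjusted p-value 0.00157).

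Slc17a7 encodes VGLUT1, the transporter that fills photoreceptor vesicles with glutamate. It was the most abundant member, at 1451, 1385 and 1457 CPM in WT and at 2184, 1456, 1647, 1852 and 1819 CPM in KO 2 to KO 6. The groups touched, since KO 3 was level with WT 3. The log2 fold change was 0.32 (SE 0.13, edgeR adjusted p-value 0.142).

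Elfn1 rose with the smallest adjusted p-value of the 10 genes (ENSMUSG00000048988, chr5:139907943-139974722, plus strand). Its protein projects from the photoreceptor terminal and binds the glutamate receptor mGluR6 on ON bipolar cells. It was at 84.5, 87.1 and 85.8 CPM in WT and at 126, 104, 122, 125 and 137 CPM in KO 2 to KO 6, with every KO library higher. Its WT mean was 85.8 ± 1.32 CPM (SD, n = 3) and its KO mean 123 ± 12.0 CPM (SD, n = 5), a log2 fold change of 0.52 (SE 0.10, edgeR adjusted p-value 0.0169). The value was 0.43 for KO 2 and KO 3 against WT (SE 0.10, edgeR adjusted p-value 0.0972) and 0.59 for KO 4, KO 5 and KO 6 (SE 0.06, adjusted p-value 1.67e-05). After GC correction it was 0.27 (edgeR adjusted p-value 0.0624). Without WT 1, WT 2 or WT 3 the edgeR adjusted p-value was 0.0996, 0.0906 and 0.0847, at log2 fold changes of 0.51 to 0.54, and the call held without any 1 of the KO libraries. Elfn1 was called in 5 of the 10 fits of 3 KO libraries against WT, and its log2 fold change was 0.45 to 0.59 in those fits.

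**Figure D3:**
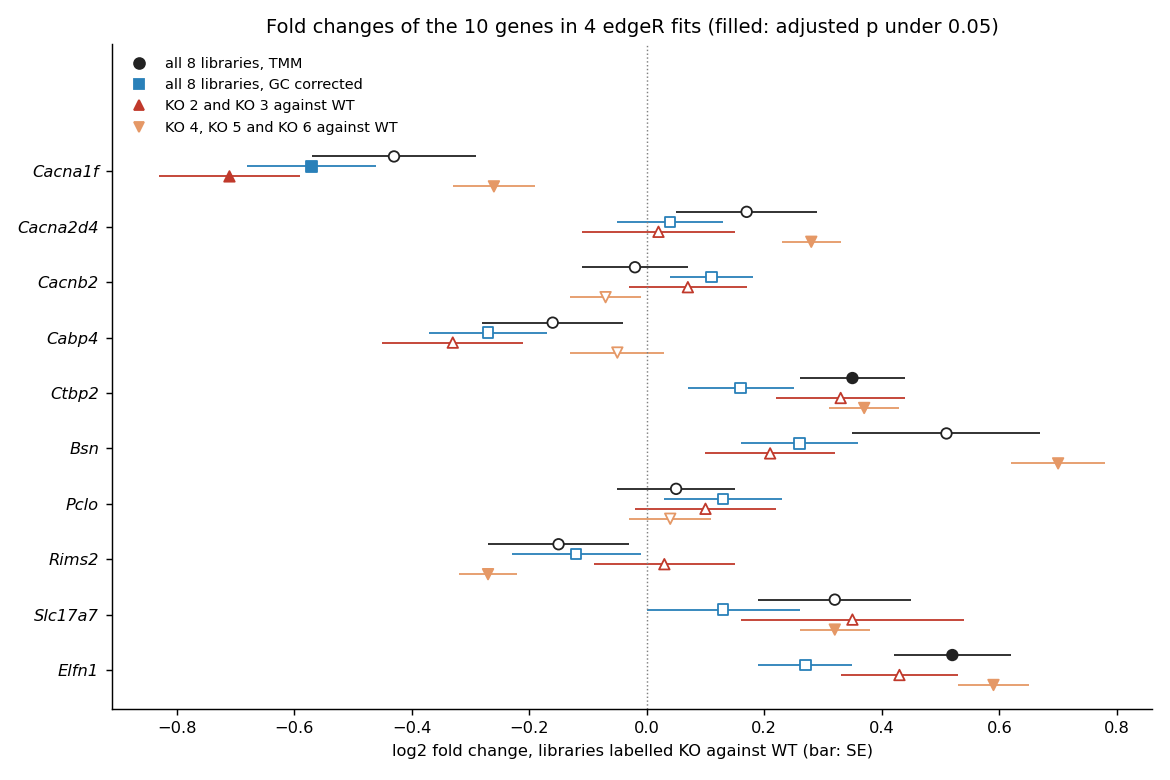
Log2 fold changes (horizontal axis, with SE bars) of the 10 genes in 4 edgeR fits that share the WT libraries, with filled symbols where the adjusted p-value was under 0.05. Cacna1f is below 0 in all 4 fits and Ctbp2, Bsn, Slc17a7 and Elfn1 are above 0 in all 4, whereas Rims2 and Cacnb2 lie on both sides of 0.

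Fold changes of the 10 genes were ordered much as the GC content of their transcripts. Elfn1 (59.2%), Bsn (58.8%), Slc17a7 (56.6%) and Ctbp2 (56.2%) had the highest GC content and the 4 highest log2 fold changes, and Cacnb2, Pclo and Rims2 (45.2% to 47.9%) lay between -0.15 and 0.05. Spearman's rho was 0.76 over the 10 genes and 0.46 over the 18028 tested genes with a GENCODE M21 transcript, as descriptions of genes measured in the same libraries. After GC correction the log2 fold change was 0.27 for Elfn1 (SE 0.08, edgeR adjusted p-value 0.0624), 0.26 for Bsn (SE 0.10, edgeR adjusted p-value 0.119) and 0.13 for Slc17a7 (SE 0.13, edgeR adjusted p-value 0.588). No member was then called higher, with 2 at an unadjusted p-value under 0.05 (13.9% of genes), where 4.33% of genes were, and Cacna1f was called lower, where 2.82% of genes were. Correction ended both calls of a rise, and the Cacna1f difference was larger with it.

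**Figure D4:**
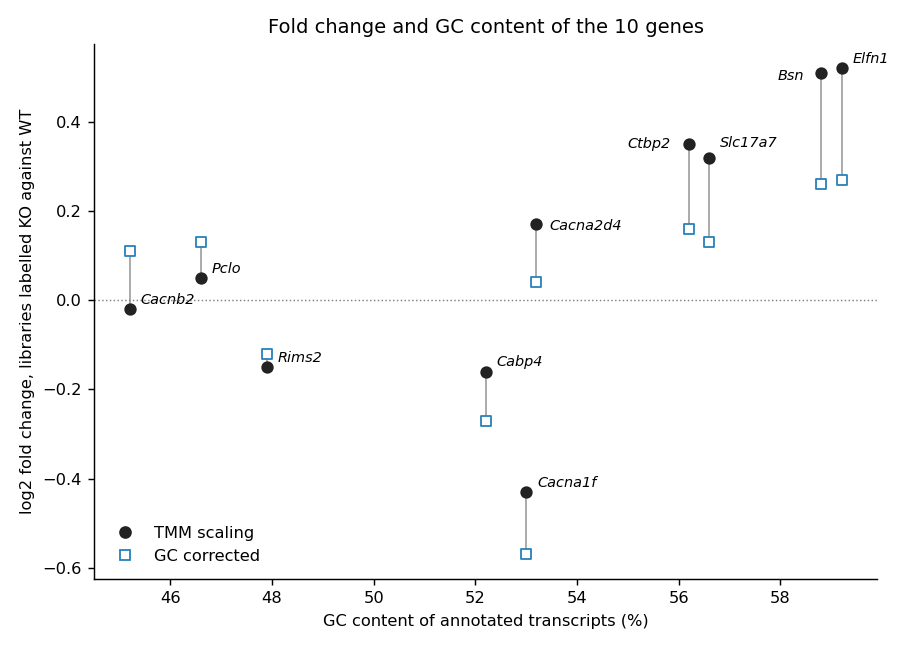
GC content of annotated transcripts in percent (horizontal axis) against log2 fold change (vertical axis) of the 10 genes, before (black circles) and after (open squares) GC correction. Elfn1, Bsn, Ctbp2 and Slc17a7 move toward 0 on correction, while Cacna1f moves from -0.43 to -0.57.

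The levels of the genes were compared with each other per kilobase of annotated exons. In WT, Slc17a7 was highest at 265 ± 7.37 CPM per kb (SD, n = 3), followed by Cabp4 (53.2 ± 5.44), Cacna2d4 (43.7 ± 1.74), Cacna1f (38.8 ± 3.01), Ctbp2 (34.2 ± 1.35), Rims2 (27.0 ± 0.920), Elfn1 (20.6 ± 0.317), Cacnb2 (14.0 ± 0.336), Pclo (9.93 ± 0.572) and Bsn (7.73 ± 0.854). The WT ranges of neighbours in this order overlapped for Cacna2d4 (41.7 to 45.0) and Cacna1f (36.0 to 42.0) and for no other pair. In KO the order began with Slc17a7 (332 ± 50.1 CPM per kb, SD, n = 5), Cacna2d4 (49.3 ± 5.68), Cabp4 (47.5 ± 5.57), Ctbp2 (43.6 ± 2.95), Elfn1 (29.5 ± 2.88) and Cacna1f (28.7 ± 4.81). Among these, Cacna2d4 (39.6 to 53.1), Cabp4 (39.3 to 53.5) and Ctbp2 (40.3 to 46.2) overlapped, so their order in KO is not settled. The KO ranges of Elfn1 (24.9 to 32.9) and Cacna1f (22.4 to 33.7) overlapped, and Cacna1f was well below Elfn1 in KO 2 but not in the other KO libraries. In WT, Cacna1f was above Ctbp2 in every library, and in KO it was below, with all values of Cacna1f at 33.7 or less and all of Ctbp2 at 40.3 or more. Exonic length was merged over all annotated transcripts, so the level of a gene with long unused exons is understated. Counts could be split with other genes for up to 6.68% of 31-base words in Cacnb2, 5.77% in Cabp4, 4.58% in Ctbp2 and 4.19% in Pclo, and for under 1% in the other 6 genes.

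Other genes of the terminal were grouped into 4 lists by their known roles. The shares of all tested genes called by edgeR, 4.74% higher and 2.84% lower, are the background to each count. Of 23 tested genes for calcium channels and calcium handling, 2 rose and 2 fell, with a median log2 fold change of 0.06. Itpr1, the inositol trisphosphate receptor of internal calcium stores, rose from 55.3 to 59.4 CPM in WT to 73.8 to 80.3 CPM in KO, by 0.43 on the log2 scale (SE 0.07, edgeR adjusted p-value 0.0102), and it was 0.43 after GC correction as well (edgeR adjusted p-value 0.00431). Atp2b2, a plasma membrane calcium pump, rose by 0.58 (edgeR adjusted p-value 0.0391). Cacna2d3, an alpha2delta subunit other than that of Cav1.4, fell by 0.34 (edgeR adjusted p-value 0.0487), and Calm2, one of the calmodulin genes, fell by 0.44 (edgeR adjusted p-value 0.0494). After GC correction Atp2b2 was at 0.43 (edgeR adjusted p-value 0.0382), while the calls of Cacna2d3 (-0.25, adjusted p-value 0.111) and Calm2 (-0.26, adjusted p-value 0.102) ended. Cacna1d, the pore subunit of the related channel Cav1.3, was at 49.3 to 55.0 CPM in WT and 46.1 to 59.7 CPM in KO, with a log2 fold change of -0.03 (SE 0.10, edgeR adjusted p-value 0.886).

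Of 28 tested genes of the ribbon and active zone list, edgeR called 0 in either direction, with 7 higher and 0 lower at an unadjusted p-value under 0.05, where 15.1% and 12.2% of all genes were, and a median of 0.12. DESeq2 called 4 of them higher and 0 lower, where it called 9.72% and 5.79% of all genes, and limma voom 10 and 3, where it called 20.3% and 20.6%. Unc13b, a vesicle priming factor of this synapse (log2 fold change 0.11), Erc2 (-0.11) and Rimbp2 (0.01), both active zone scaffolds, had edgeR adjusted p-values of 0.531, 0.637 and 0.956. Of 37 genes of vesicle release and recycling, 2 rose and 0 fell, with a median of 0.12. At an unadjusted p-value under 0.05, 9 were higher and 2 lower, where 15.1% and 12.2% of all genes were. DESeq2 called 9 higher and 1 lower, and limma voom 14 and 4, against the shares of all genes given above for each. Atp6v0a1, a subunit of the proton pump that energises vesicle filling, rose by 0.49 (edgeR adjusted p-value 0.0440). The other was a minor second gene model with the symbol Cplx2, at 1.69 to 2.18 CPM in WT and 3.09 to 4.42 CPM in KO, whose reads may be split with the main Cplx2 model (log2 fold change 0.39, edgeR adjusted p-value 0.283). Cplx3 (0.14) and Cplx4 (-0.04), the complexins of photoreceptor terminals, and Stx3 (0.00), the syntaxin of ribbon synapses, had edgeR adjusted p-values of 0.487, 0.826 and 0.994.

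The list of scaffold, adhesion and postsynaptic partners had 7 genes called higher and 1 lower of 35, where 4.74% and 2.84% of all genes were, with a median of 0.16. Slc1a2, a glutamate transporter, rose from 245 to 247 CPM in WT to 305 to 417 CPM in KO, by 0.63 on the log2 scale (SE 0.12, edgeR adjusted p-value 0.0210). Dag1, which encodes dystroglycan of the photoreceptor terminal, rose by 0.31 (edgeR adjusted p-value 0.0395), and the adhesion genes Ntng2 and Lrrc4b rose by 0.66 and 0.75 (edgeR adjusted p-values 0.0392 and 0.0431). GC correction ended the calls of Dag1 (0.16, edgeR adjusted p-value 0.333) and Lrrc4b (0.43, edgeR adjusted p-value 0.0773). Lrit2, a leucine-rich repeat membrane protein, was the 1 gene that fell, from 233 to 236 CPM to 169 to 197 CPM in KO, with a log2 fold change of -0.37 (SE 0.09, edgeR adjusted p-value 0.0323). Egflam, which encodes pikachurin, the ligand of dystroglycan at this synapse, had a log2 fold change of 0.35 (edgeR adjusted p-value 0.174).

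**Figure D5:**
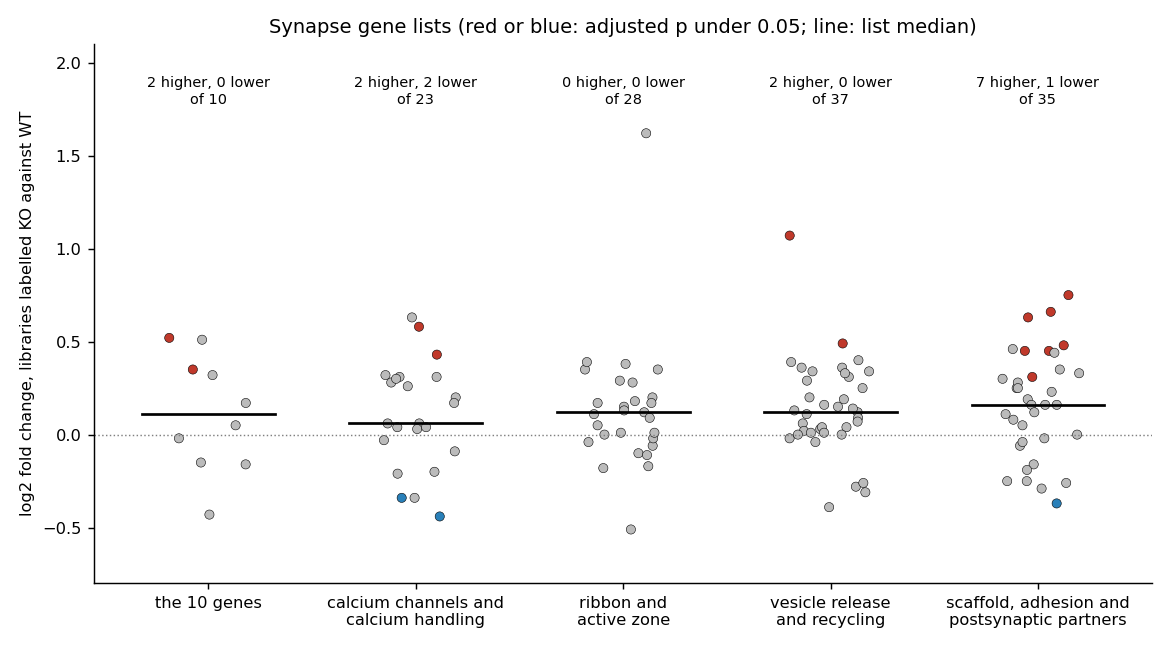
Log2 fold changes (vertical axis) of the 10 genes and of the genes of the 4 wider lists, one point per gene, red where called higher and blue where called lower by edgeR, with the list median as a line. In the list of scaffold, adhesion and postsynaptic partners 7 of 35 were called higher, and in the ribbon and active zone list 0 of 28, where 4.74% of all tested genes were.

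These calls changed with the scaling and with the libraries used. Scaled to the rod markers, edgeR called 0 genes of the 4 lists, with 1 to 6 higher and 0 to 3 lower in a list at an unadjusted p-value under 0.05. Under that scaling 0.793% of all genes were called higher and 0.407% lower, and 7.56% and 11.4% were so at the unadjusted threshold. With library size alone it called 2 higher and 2 lower in the scaffold list, 1 and 1 in the calcium and in the vesicle list, and 0 in the ribbon list, where 2.81% and 3.90% of all genes were called. After GC correction it called 3 higher and 1 lower in the scaffold list, 3 and 0 in the calcium and in the vesicle list, and 1 and 0 in the ribbon list, where 4.33% and 2.82% of all genes were called. With no filter on low counts, the scaffold list had 3 higher and 1 lower and the calcium list 2 and 0, where 2.59% and 1.48% of all genes were called. Without WT 1, WT 2 or WT 3, edgeR called 0 genes of the 4 lists, with 4 to 11 higher and 0 to 2 lower in a list at an unadjusted p-value under 0.05, where 10.9% to 11.5% and 7.70% to 9.11% of all genes were. Without KO 4, KO 5 or KO 6 it called at most 1 gene of a list, while the shares over all genes were 1.28%, 1.31% and 1.73% higher and 0.559%, 0.632% and 0.949% lower. Without KO 3 it called 5 higher and 2 lower in the calcium list, 6 and 0 in the ribbon list, 9 and 1 in the vesicle list, and 15 and 2 in the scaffold list, while the shares over all genes were 12.2% and 7.85%. Without KO 2 it called 4 and 2, 3 and 1, 2 and 3, and 7 and 2 in these lists, while the shares over all genes were 7.66% and 6.23%. For KO 2 and KO 3 against WT, 0 genes of the 4 lists were called in either direction by edgeR, where 0.624% of all tested genes were higher and 0.267% lower. At an unadjusted p-value under 0.05, 2 were higher and 1 lower in the calcium list, 3 and 1 in the ribbon list, 5 and 0 in the vesicle list, and 9 and 4 in the scaffold list, where 10.1% and 8.82% of all genes were. The log2 fold changes in that fit were 0.41 for Itpr1, -0.40 for Cacna2d3, 0.39 for Dag1 and 0.92 for the second Cplx2 model, against 0.43, -0.34, 0.31 and 1.07 over all libraries. They were smaller for Ntng2 (0.33, from 0.66), Atp2b2 (0.32, from 0.58), Slc1a2 (0.42, from 0.63), Lrrc4b (0.51, from 0.75), Calm2 (-0.30, from -0.44), Lrit2 (-0.29, from -0.37) and Atp6v0a1 (0.40, from 0.49). For KO 4, KO 5 and KO 6 against the same WT libraries, the calls were 10 higher and 5 lower, 10 and 5, 15 and 4, and 18 and 8, where 22.3% of all genes were higher and 20.5% lower. In that fit 5 of the 10 members were called higher, namely Cacna2d4, Ctbp2, Bsn, Slc17a7 and Elfn1, and 2 lower, Cacna1f and Rims2.

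Markers of some retinal cell types also differed between the groups, where 4.74% of all tested genes were called higher and 2.84% lower. The 9 Muller glia markers summed to 5460 to 7638 CPM in KO and 4808 to 5032 CPM in WT, with 3 higher and 0 lower by edgeR, and the 7 endothelial markers to 292 to 413 and 239 to 244 CPM, with 2 higher. Of the 12 rod markers 1 was called higher (Sag, arrestin, log2 fold change 0.87) and 0 lower, and their sum was 64551 CPM in KO 2 and 42538 CPM in KO 3, the highest and lowest of all libraries. Of the 12 cone markers 1 was higher and 3 were lower. The 9 microglia markers summed to 65.2 to 86.8 CPM in KO and 54.7 to 62.4 CPM in WT, with 2 higher. Each gene of these 5 lists had counts in every library. Of the amacrine, ganglion and pigment epithelium markers edgeR called 0, and of the bipolar and the horizontal markers 0 higher and 1 lower each. The ranges of the sums overlapped between the groups for all of these other lists, and also for rods and cones. With libraries scaled so that the mean log2 level of the rod markers was equal, the median of all genes shifted by -0.10, and the log2 fold change was 0.41 for Elfn1 (edgeR adjusted p-value 0.0785), 0.24 for Ctbp2 (0.295) and -0.54 for Cacna1f (0.113), with 0 members called and 2 higher and 1 lower at an unadjusted p-value under 0.05, where 7.56% and 11.4% of all genes were, and 0.793% were called higher and 0.407% lower. The part of the other cell types in the results was not tested.

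Likeness to 3 members was measured among 123 genes of the wider lists by the mean absolute difference of centred log2 CPM over the 8 libraries. Mpp4, a scaffold of the photoreceptor terminal, was closest to Cacna1f, at 0.142, with 444, 463 and 396 CPM in WT and 278, 362, 429, 427 and 455 CPM in KO 2 to KO 6. As in Cacna1f, KO 2 and KO 3 were the lowest libraries, but KO 4 to KO 6 lay within the WT range. Cacnb3, another channel beta subunit, was closest to Ctbp2, at 0.061, and Elfn2, a relative of Elfn1, was closest to Slc17a7, at 0.037.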

How the data were processed

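The authors deposited 1 table of estimated counts per gene under Ensembl mouse identifiers for 8 libraries, as whole numbers that are not scaled between libraries. The submitters' processing notes name Trim Galore, Salmon 1.10.2, DESeq2 and the build GRCm38, without their roles; annotation release and strand setting are not given in the sources used here. Counts of Cacnb2, Cabp4 and Pclo, which overlap exons on the opposite strand, are therefore uncertain to that extent. Every gene in the table had at least 16 counts over all libraries.

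The 10 genes, the lists and the tests were chosen with earlier results of these data known. Counts were scaled by TMM, filtered by filterByExpr and tested with edgeR 4.0.16 (glmQLFit, glmQLFTest; R 4.3.3) on 3 WT and 5 KO libraries without covariates, with Benjamini-Hochberg adjustment over 20167 genes and a threshold of 0.05. Each standard error is the size of the log2 fold change over the square root of F. Log2 CPM used a prior count of 2. Alternatives used DESeq2 1.42.0, limma 3.58.1, other scalings and filters, fewer libraries, and an offset smoothed on GC content (lowess, span 0.3) from GENCODE M21, which held 22121 of 26824 genes. None of the 13 pairs of libraries within a group agreed within sampling noise (chi-square per degree of freedom 5.38 or more). The value was 7.41 to 15.7 among WT libraries, 5.38 to 6.28 among KO 4, KO 5 and KO 6, and 96.0 for KO 2 with KO 3. At these depths 3 counts equal 0.119 to 0.169 CPM, so the precision of the members is limited by the spread between libraries. The p-values set each difference against that spread within groups, and they cannot allow for a batch that goes with the label. On simulated counts with 2-fold changes and the WT dispersion, edgeR recovered 173 of 195 tested changed genes (88.7%) among 19712. The KO libraries were more unlike each other than this dispersion allows, and the members had log2 fold changes of only -0.43 to 0.52. The simulation therefore checks that the fit works and does not give the power for the members. Named genes were the 10 members, Kcnv2, up to 4 called genes with the smallest p-values per direction and wider list, the closest genes in likeness, and cell markers. Cacna1d, Unc13b, Erc2, Rimbp2, Cplx3, Cplx4, Stx3 and Egflam lie outside that rule and were named, after their values had been seen, for their known place in this synapse.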

Additional observations from a re-analysis of the deposited data

Results flagged for a closer look

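In 37 values of the 5 KO libraries (named genes and marker sums), the gap between the outermost library and its neighbour was set against their whole range, and 5 passed the limit of 0.71, where chance gives about 1.9. None was one of the 10 ribbon synapse genes. Kcnv2 was at 585 CPM in KO 2, with 447 CPM next and a gap of 0.738 of the range. The ganglion cell markers summed to 1488 CPM in KO 2, with 1182 CPM next (0.724), and the 5 tested of 7 listed blood and muscle markers to 60.6 CPM in KO 2, with 27.2 CPM next (0.816). Endothelial markers summed to 292 CPM in KO 3, below 382 CPM in the next library (0.743). Lens markers summed to 51507 CPM in KO 3, with 230 CPM next (0.996).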

How the results depend on the processing

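Over 32 alternatives to the edgeR fit, Elfn1 was called in 17, Ctbp2 in 10, Bsn in 8, Cacna1f in 6 and Slc17a7 in 4, each with 1 direction (Elfn1 0.27 to 0.59, Ctbp2 0.16 to 0.42, Bsn 0.15 to 0.70, Cacna1f -0.75 to -0.26, Slc17a7 0.13 to 0.45). The causes of changes between settings were not tested, and the spread between libraries rather than depth limits the precision.

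Against 956 genes called higher and 573 lower, library size alone gave 566 higher and 787 lower, scaling to rod markers 160 and 82, DESeq2 1960 and 1167, limma voom 4084 and 4164, KO 2 and KO 3 against WT 126 and 54, and the same with GC correction 101 and 49. Leaving out 1 or 2 libraries gave 82 to 4379 higher and 36 to 4037 lower. Against 2 members called higher and 0 lower, DESeq2 size factors, library size alone and no filter each gave 1 higher, rod scaling 0, and limma voom 5 higher and 2 lower. DESeq2 gave 3 higher and 1 lower. GC correction, KO 2 and KO 3 against WT, and both together each gave 0 higher and 1 lower. Leaving out libraries gave 0 to 5 higher and 0 to 2 lower. Leaving out lens genes gave 1030 higher and 582 lower, 2 members higher and 0 lower, and 1 gene rather than 2 lower in the calcium list. The ratio of Cacna1f to Cacna2d4 stayed between -0.72 and -0.51 on the log2 scale in 20 alternatives.

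Signs of some log2 fold changes turned. Cacnb2 (-0.02) was 0.11 with GC correction, 0.07 in KO 2 and KO 3 against WT, 0.10 with both, and -0.09 to 0.06 with libraries left out. Pclo (0.05) was -0.04 with rod scaling and -0.03 to 0.15 with libraries left out. Rims2 (-0.15) was 0.03 for the fit of KO 2 and KO 3 and 0.04 with GC correction as well, and Cacna2d4 (0.17) was -0.03 there. Mpp4 (-0.16) was -0.29 to 0.02 with libraries left out.

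Replicate numbers 2 and 3 occur in both groups. Between libraries that share a number, gene levels centred in each group had a correlation of -0.19 over 4 libraries. This value rests on 1 contrast in each group, the difference between its 2 libraries. It therefore cannot decide whether the numbers mark pairs. In these 4 libraries the replicate block gave 38 higher and 14 lower, no block 12 and 2, and a crossed pairing 340 and 187, with 0 members called in each by edgeR (1 higher and 1 lower at an unadjusted p-value under 0.05, where 5.14% and 4.79% of all genes were with the block, 6.17% and 5.27% without it and 8.09% and 7.10% crossed). With the block Cacna1f was -0.65 (edgeR adjusted p-value 0.267), Cacnb2 0.08 and Rims2 0.03, the latter 2 with the same values without the block and in the crossed pairing. The crossed pairing, the lens alternative, GC correction in KO 2 and KO 3, and the ratio were chosen after seeing the data.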
